A study of Mus musculus with 12 samples.

Results

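The comparison described here set the arrays taken 1 day after doxycycline (Dox) was removed from Esrrb_R mouse embryonic stem cells against the arrays of the same cells still receiving Dox. It took 3 of the series' 12 arrays titled day 1 -Dox and 3 titled day 0 +Dox, 6 arrays in all, and every gene with a value, 19938 of 19938. A gene entered when at least 1 probe set carried its symbol and no other, and its probe sets were averaged. Esrrb_R is 1 rescue clone of the rtTA-expressing line AINV15, cultured in serum with Lif. All groups carry a short hairpin RNA against the endogenous Esrrb together with a resistant, GFP-tagged Esrrb transgene that is transcribed only with Dox. Day 0 cultures had 1 µg/ml Dox and day 1 cultures had none, with 3 biological replicates each. Every change at day 1 is therefore a change of a single clone that lost Dox, the transgene product and the GFP tag together, and no array here separates these or the time in culture. The signal is a log2 value from the Affymetrix Mouse Gene 1.0 ST array, whose probes lie along the exons. A difference of 1 is a 2-fold change, and levels of different genes on this scale cannot be ranked against each other.

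Esrrb is an orphan nuclear receptor that binds DNA as a monomer and activates transcription without a known hormone. In naive embryonic stem cells it acts with Nanog, Klf4, Tfcp2l1, Tbx3, Nr5a2 and Nr0b1, a group of factors, several of them targets of Lif, that hold the cells in a state like the epiblast before implantation. After implantation the epiblast becomes primed: the naive factors are shut off while Pou5f1 and Sox2 persist, and genes such as Fgf5, Fgf15, Otx2, Lef1 and Dnmt3b come on. Related receptors of the Esrr family are known in other tissues for the control of mitochondrial and fatty acid metabolism.

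The identity of the cultures was checked with marker genes. The mean log2 level of 7 markers of embryonic stem cells ranged from 12.38 to 12.44 over the day 0 arrays and from 12.14 to 12.17 over the day 1 arrays, without overlap. The lower mean came from part of the list: Nanog (-0.80), Zfp42 (-0.46), Dppa5a (-0.25) and Sox2 (-0.23). Pou5f1, Utf1 and Tdgf1 were at 0.00. The line is kept on fibroblast feeders between experiments, and the methods state gelatin without feeders for the experiments. Levels cannot be ranked between genes, so the arrays were compared between days for each list, and whether feeder cells remained was not tested. The mean level of 18 fibroblast markers ranged from 7.90 to 7.98 at day 0 and from 7.90 to 7.92 at day 1, and that of 9 blood and endothelial markers from 7.04 to 7.13 and from 7.05 to 7.15. A shorter list of 5 blood and endothelial markers lay between 7.10 and 7.17 at day 0 and between 7.20 and 7.29 at day 1, and 21 markers of primitive and visceral endoderm lay between 9.24 and 9.33 and between 9.46 and 9.48, so both were higher at day 1 on each array. The part of other cells in the results was not tested. Median signals ranged from 6.94 to 7.05 over the day 0 arrays and from 6.95 to 6.99 over the day 1 arrays, and no array stood apart by its median.

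Esrrb itself gave log2 signals of 11.59, 11.54 and 11.63 on the 3 arrays with Dox and of 9.09, 9.15 and 9.16 on the 3 arrays 1 day without it. The groups did not overlap, and the gap between them was many times the spread within either. The difference of -2.46 (standard error 0.07, adjusted p = 1.6e-09 from limma) is a 5.49-fold fall, the largest of any gene. In a bulk culture fewer cells with a transcript and less transcript per cell cannot be told apart, here and for each gene that follows. The paper reports that endogenous Esrrb mRNA could not be detected in this line. On these arrays, whether the remaining signal came from the transgene or from the endogenous locus was not tested.

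One day was enough for 1286 genes to be higher and 894 to be lower at an adjusted p under 0.05, which is 6.45% and 4.48% of the 19938 genes tested and 10.9% together. Most of these changes were small. The median change was 0.32 on the log2 scale among the higher genes and -0.34 among the lower, while the 5th and 95th percentile of the changes of all genes were -0.25 and 0.28. Only 23 genes rose and 40 fell by more than 2-fold. The 3 arrays of day 1 lay entirely on 1 side of those of day 0 for 1285 of the higher and 889 of the lower genes, and for 30.3% of all genes. Of the calls, 608 higher and 421 lower genes were called in each of the 6 fits that left out 1 array, as were 23 of 23 and 39 of 40 of those past 2-fold. Leaving out day 0 replicate 1 reduced the higher genes to 811. Leaving out replicate 1, 2 or 3 of day 1 gave 807, 797 or 734 of them, and the lower genes numbered 550 when day 1 replicate 1 was absent and 502 when replicate 3 was. Higher genes made up 59.0% of the calls, and 69.6% (1301 higher, 567 lower) when each array was centred on its own median. Outside the dimmest 30% of genes lay 1232 of the higher and 809 of the lower genes. The share called among brighter genes was therefore above the 10.9% over all genes. The list shares below were not set against brighter genes alone, and a list of 12 housekeeping genes had 25% called. The genes named below as higher or lower held their call in each of the 6 fits unless the text names the array that ended it.

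**Figure D1:**
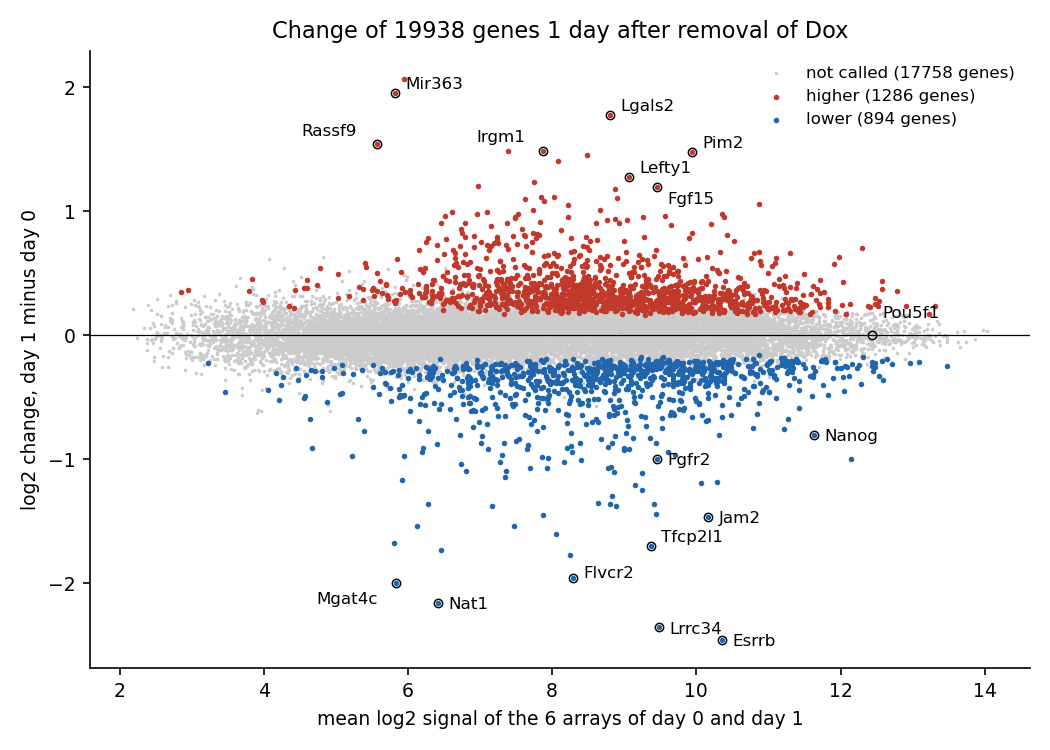
Log2 change from day 0 to day 1 (vertical axis) against the mean log2 signal of the 6 arrays (horizontal axis) for 19938 genes, with 1286 genes called higher in red, 894 called lower in blue and labelled genes circled. The falls of Esrrb (-2.46) and Lrrc34 (-2.36) reach further than the rises, and Pou5f1 sits at 0.00.

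After Esrrb, the genes with an established symbol that fell the most coded for enzymes, a transporter, surface proteins and 1 transcription factor. Lrrc34, a leucine-rich repeat protein, read 10.64, 10.71 and 10.63 with Dox and 8.34, 8.40 and 8.17 without, a difference of -2.36 (standard error 0.10, adjusted p = 3e-08). Nat1, an arylamine N-acetyltransferase, went from 7.56, 7.69 and 7.22 to 5.41, 5.38 and 5.22, a 4.46-fold fall. Flvcr2, a membrane transporter of the heme transporter family, went from 9.30, 9.19 and 9.32 to 7.28, 7.44 and 7.21. In each of these genes the lowest array with Dox lay more than 1 log2 unit above the highest array without it. Tfcp2l1, the transcription factor of the naive network nearest to Lif and Stat3, read 10.20, 10.22 and 10.24 with Dox and 8.55, 8.48 and 8.52 without (-1.70, standard error 0.11, adjusted p = 1e-06). Its arrays within a day differed by less than 0.1. The other falls were Mgat4c, a glycosyltransferase (-2.001), Pde8a, a phosphodiesterase of cyclic AMP (-1.77), Edil3, a matrix ligand of integrins (-1.73), Pgam2, the muscle form of a glycolytic mutase (-1.61), Aspa, which cleaves N-acetylaspartate (-1.54), Ptprz1, a receptor tyrosine phosphatase (-1.54), Jam2, a junctional adhesion molecule (-1.47), St8sia1, which makes the ganglioside GD3 (-1.45), Dcaf12l1, a WD-repeat protein (-1.44), and Grin3a, a subunit of glutamate receptors (-1.38). Their adjusted p from limma ranged from 1.1e-08 to 3.5e-06, and in all 15 genes the day 1 arrays were below those of day 0. BC053393, a clone symbol that the rule for named genes leaves out, also fell (-1.67, adjusted p = 0.00019).

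Among the rises in signal the largest with an established gene symbol was Mir363, the gene of a microRNA precursor. Its log2 signal was 4.82, 4.78 and 4.92 with Dox and 6.57, 6.87 and 6.95 without, a 3.87-fold rise (1.95, standard error 0.09, adjusted p = 1.2e-07). One clone symbol that the rule for named genes leaves out, Gm10636, rose by 2.07. The array measures RNA that holds the hairpin, not the mature microRNA. No detection call was used here, so whether the day 0 signal of Mir363 lies above background was not tested, and the fold is one of signals. Mir363 lies at chrX:52741693-52741767 on the minus strand (GRCm38.p6) in a row of 6 hairpins that starts with Mir106a at chrX:52742503-52742567, so all 6 are read from the same strand. The mature products that bear on this rise are shown with their seed, bases 2 to 8, in capitals, since the seed sets which messages a microRNA pairs with. The first 3 share the seed AUUGCAC and the last pair the seed AAAGUGC, and the gene of miR-367-3p lies on another chromosome, 3. The gene Mir92-1, not analysed here, gives the same mature miR-92a-3p as Mir92-2.
miR-363-3p: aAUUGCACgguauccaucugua
miR-92a-3p: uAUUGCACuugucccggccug
miR-367-3p: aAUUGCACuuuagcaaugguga
miR-106a-5p: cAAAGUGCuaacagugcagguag
miR-20b-5p: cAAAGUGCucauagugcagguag

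The neighbours of Mir363 were looked at after its value was seen. Mir106a read 5.43, 5.22 and 5.31 with Dox and 5.70, 5.63 and 6.14 without, a rise of 0.50 (adjusted p = 0.021) whose call was lost without day 0 replicates 2 and 3 or day 1 replicate 3 (adjusted p from 0.051 to 0.076). Mir20b (4.86, 4.95 and 4.80 against 5.50, 5.22 and 5.21; adjusted p = 0.068) and Mir19b-2 (4.24, 4.17 and 4.14 against 4.66, 4.51 and 4.70; adjusted p = 0.098) did not pass the test, although no day 1 array overlapped those of day 0, as held for 30.3% of all genes. Mir92-2, whose mature product has the seed of miR-363-3p, changed by 0.17 (adjusted p = 0.3), and Mir18b was not analysed here. The precursors of the miR-302 cluster, known from the primed state, and of miR-367 gave no call at day 1, with changes from -0.07 for Mir302d to 0.19 for Mir367. Of 300 microRNA genes tested, 8 were higher and 3 lower, 3.67% against 10.9% of all genes. Besides Mir363, only Mir300 (chr12:109724313-109724391) among the 11 held its call in each of the 6 fits, at 6.06, 6.23 and 6.004 with Dox and 6.59, 6.78 and 6.75 without (0.61, adjusted p = 0.00097).

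The other rises came from genes of many kinds. Lgals2, the sugar-binding protein galectin-2, read 7.86, 8.001 and 7.90 with Dox and 9.66, 9.56 and 9.87 without (3.43-fold, adjusted p = 1e-06). Rassf9, a protein with a Ras-association domain, read 4.82, 4.78 and 4.80 and 6.32, 6.33 and 6.37, with the smallest standard error among the 15 rises (0.06). Pim2, a serine/threonine kinase that promotes survival and that Lif and Stat3 can induce, read 9.15, 9.34 and 9.11 and 10.69, 10.58 and 10.77 (1.48, adjusted p = 2.5e-07). The groups did not overlap in any of them, and the rises ran from 2.78-fold to 3.43-fold. Lefty1, a secreted inhibitor of Nodal, went from 8.27, 8.47 and 8.54 to 9.68, 9.61 and 9.82, and Fgf15, a ligand of the primed epiblast, from 8.71, 9.03 and 8.85 to 10.01, 10.02 and 10.14. The rest were Irgm1, a GTPase induced by interferon (1.49), Vrtn, a factor known from the number of vertebrae (1.49), Pga5, a pepsinogen (1.45), Plbd1, a phospholipase (1.40), Bcl11a, a zinc finger repressor (1.24), the olfactory receptor gene Olfr307 (1.20), Dpp4, a surface peptidase (1.18), Tmem54, a membrane protein (1.11), and Slc23a1, a transporter of vitamin C (1.11). Adjusted p of the 15 rises ranged from 1.1e-08 to 0.00014.

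**Figure D2:**
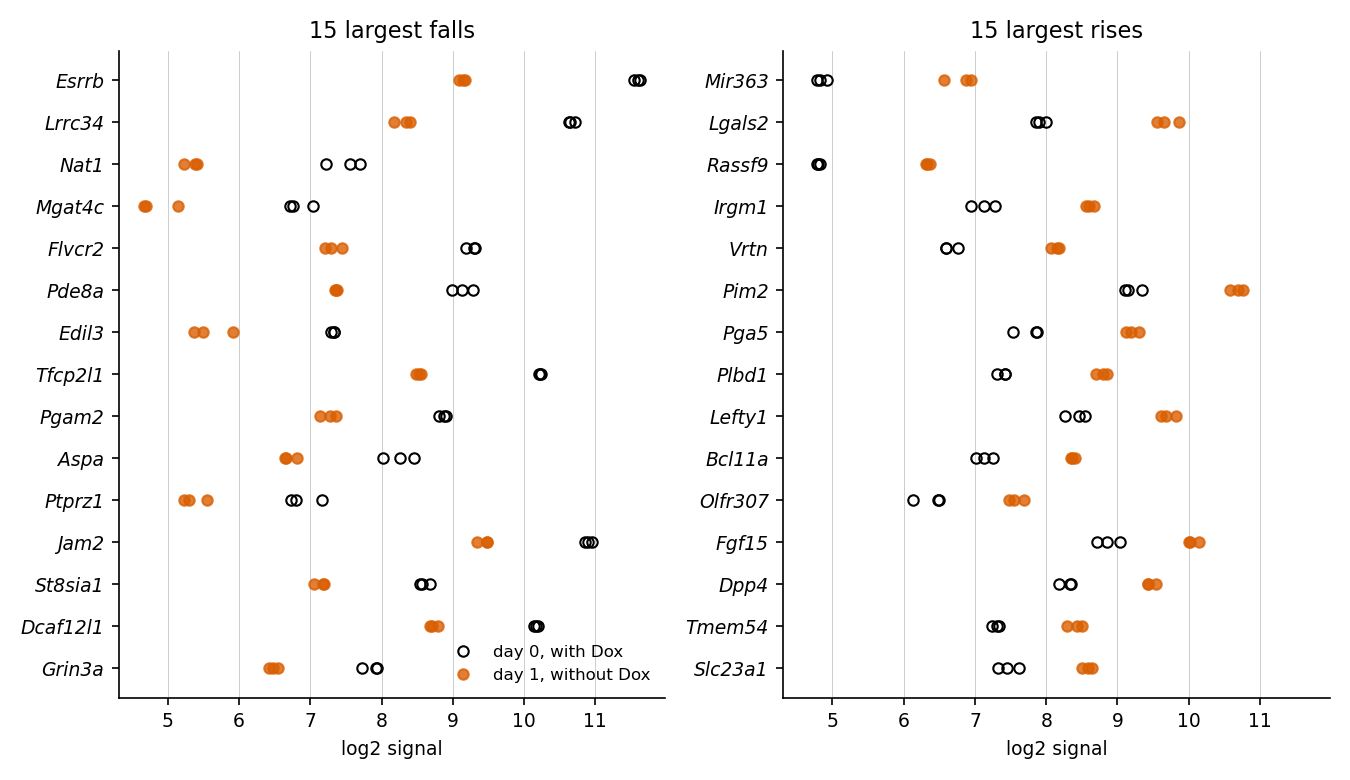
Log2 signal (horizontal axis) of the 15 genes with the largest falls and the 15 with the largest rises, 3 arrays of day 0 with Dox (open circles) and 3 of day 1 without Dox (filled circles) per gene. No filled circle reaches an open one in any of the 30 genes, which is how they were chosen.

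Genes of the naive network fell. The lists given here and below were chosen with earlier results of these data known, so their shares are a description and not a test. Of 19 naive genes measured, 11 were lower and 1 was higher, 63.2% beside 10.9% of all genes. The median change was -0.36 beside 0.01 over all genes, and 8 of the 11 held in each of the 6 fits. Nanog, the homeodomain factor that Esrrb acts beside, read 11.96, 12.14 and 11.99 with Dox and 11.23, 11.29 and 11.16 without (-0.80, standard error 0.06, adjusted p = 3.5e-06). Nr0b1, an orphan receptor that represses transcription, went from 12.64, 12.67 and 12.64 to 11.60, 11.77 and 11.58 (-0.998, adjusted p = 0.00017). Tbx3, a T-box factor, went from 10.49, 10.48 and 10.46 to 9.72, 9.82 and 9.81 (-0.69). Klf4, a Krüppel-like factor and Lif target, fell by 0.49 and Zfp42, the marker Rex1, by 0.46. Of the other Krüppel-like factors of the list, Klf5 (-0.14, adjusted p = 0.2) and Klf2 (0.22, adjusted p = 0.058, chosen after its value was seen) did not pass the test. Gbx2, a homeobox factor, rose by 0.30 (adjusted p = 0.0081), against the direction of the list, and without day 0 replicate 3 the list had 2 higher members. Prdm14 (-0.36) lost its call without day 0 replicates 1 and 2 or day 1 replicates 1 and 3 (adjusted p from 0.059 to 0.11), and Nr5a2 (-0.36) without day 0 replicates 1 and 2 or day 1 replicates 1 and 3 (adjusted p from 0.056 to 0.09).

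Factors common to naive and primed cells moved in both directions or did not pass the test. Among 21 general pluripotency genes, 3 were higher and 3 lower, 28.6% beside 10.9% of all genes, with a median of 0.0. In each of the 6 fits 2 of the higher and 2 of the lower held. Pou5f1, which encodes Oct4, read 12.36, 12.47 and 12.48 with Dox and 12.43, 12.38 and 12.51 without, with overlapping arrays and a difference of 0.00 (standard error 0.07, adjusted p = 0.98). Sox2, its partner, read 12.29, 12.33 and 12.23 and 12.05, 12.10 and 11.98 (-0.23, adjusted p = 0.025), and this call was lost without day 0 replicates 1 and 2 or day 1 replicates 1 and 3 (adjusted p from 0.073 to 0.11) and with median centring (adjusted p = 0.078). Dnmt3l, a cofactor of the de novo DNA methyltransferases, rose from 11.68, 11.55 and 11.63 to 12.20, 12.16 and 12.22 (0.57, adjusted p = 0.00011). Lin28a, an RNA-binding protein that blocks let-7, rose by 0.38, and Fbxo15, a known target of Oct4 and Sox2, fell by 0.58, as did Mybl2, a cell cycle factor, by 0.30. Sall4 (0.03), Dppa2 (-0.06), Dppa4 (0.09), Zscan10 (0.16), Krr1 (-0.04), Rnf125 (-0.36) and Utf1 (0.00) did not pass the test.

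Primed epiblast genes rose together with these falls. Of 20 primed genes, 14 were higher and 0 lower, 70% beside 10.9% of all genes. Their median change was 0.6, and between 11 and 13 were higher when 1 array was left out. Cldn6, a claudin of early epithelia, read 10.22, 10.33 and 10.46 with Dox and 11.44, 11.30 and 11.45 without (1.06, standard error 0.07, adjusted p = 1.3e-06). Fgf5, the common marker of the state, went from 7.94, 7.77 and 7.51 to 8.70, 8.72 and 8.67 (0.95, adjusted p = 0.0014). Lef1, a DNA-binding partner of beta-catenin, rose by 0.90 and Grhl2, a factor of epithelial identity, by 0.77. Chosen after their values were seen, Zic2 (1.01), Car14 (0.96), Sall2 (0.79), Tead2 (0.69), Pou3f1 (0.60) and the methyltransferase Dnmt3b (0.38) also rose. Otx2 (0.40) lost its call without day 0 replicates 1 and 3 or day 1 replicates 1, 2 and 3 (adjusted p from 0.083 to 0.13). Dnmt3a (0.02, adjusted p = 0.92) and the transcription factor Etv4 (-0.12, adjusted p = 0.34, likewise chosen after its value was seen) did not pass the test.

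**Figure D3:**
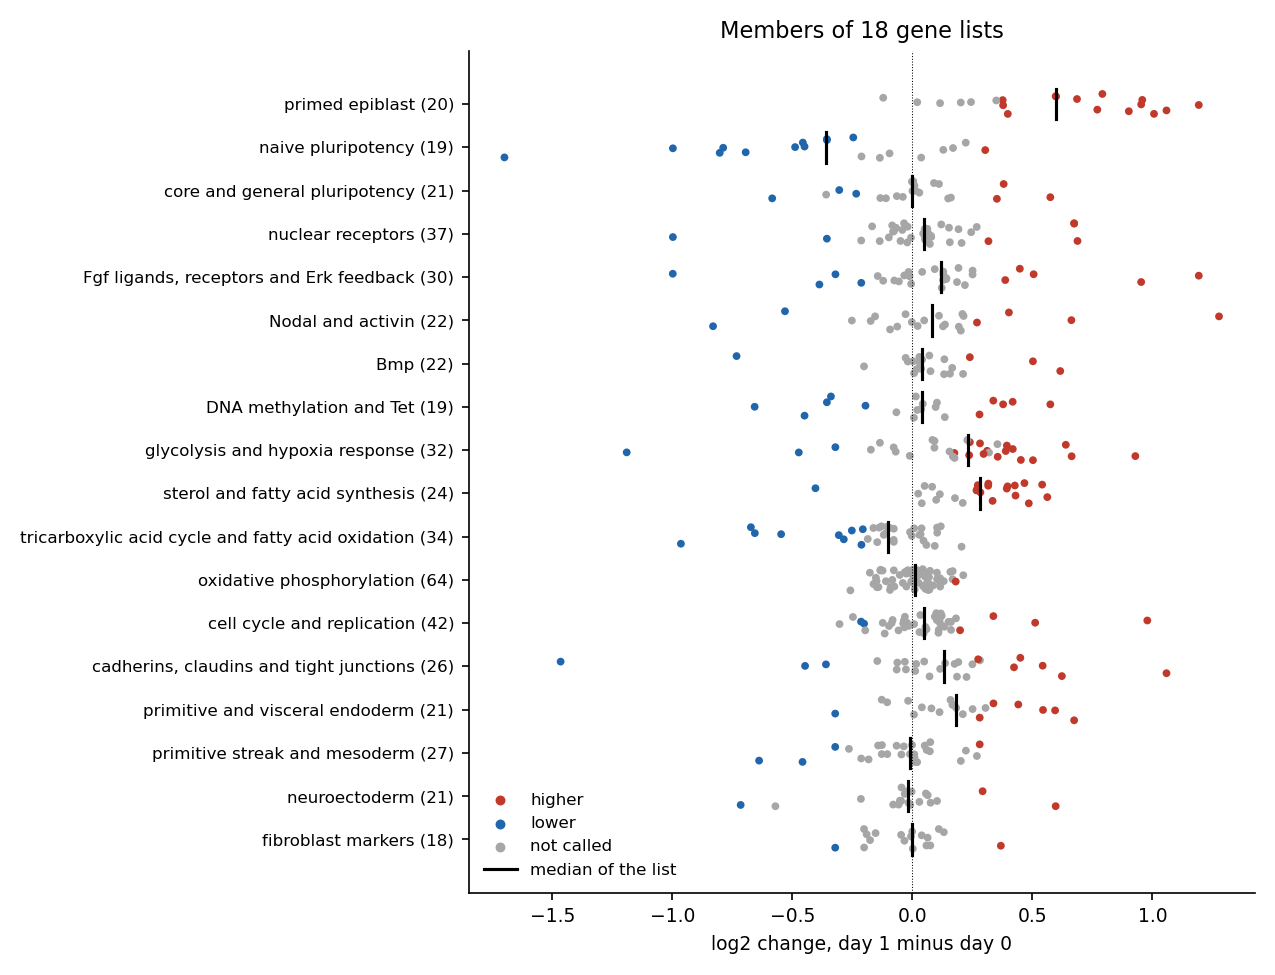
Log2 change from day 0 to day 1 (horizontal axis) of each measured member of 18 gene lists, with the number of members in brackets, called genes in colour and the median of each list as a black bar. The primed list has its median at 0.60 and the naive list at -0.36, while the medians of oxidative phosphorylation (0.01) and of the fibroblast markers (0.00) sit at the line of no change.

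Other nuclear receptors moved in both directions. Of 37 in the list, which leaves out Esrrb, 4 were higher and 2 lower, 16.2% beside 10.9% of all genes. Rarg, a retinoic acid receptor, read 8.73, 8.69 and 8.63 with Dox and 9.29, 9.43 and 9.35 without (0.67, adjusted p = 2e-05). Rxrg, a partner receptor, went from 5.84, 5.74 and 5.84 to 6.39, 6.37 and 6.74. Hnf4a, a receptor of endoderm, rose by 0.67, and Nr6a1, a receptor known for repressing Pou5f1 during differentiation, by 0.32 (adjusted p = 0.0027). Nr0b1 and Nr5a2, given above, were the lower members, and the lower count was 1 without day 0 replicates 1 and 2 or day 1 replicates 1 and 3. The closest relatives of Esrrb, Esrra (0.05, adjusted p = 0.65) and Esrrg (-0.03, adjusted p = 0.83), which were chosen after their values were seen, did not pass the test.

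In the Fgf and Erk pathway, ligands and a receptor changed in opposite directions. Besides Fgf15 and Fgf5, the ligand Fgf3 rose by 0.39 (chosen after its value was seen), while Fgf4, the ligand that embryonic stem cells make themselves, changed by 0.13 (adjusted p = 0.46, likewise chosen). The receptor Fgfr2 fell from 10.04, 9.86 and 9.95 to 8.97, 8.95 and 8.93 (-0.999, standard error 0.06, adjusted p = 9.5e-07), the largest fall of the list. Fgfr1, also chosen after its value was seen, changed by -0.01 (adjusted p = 0.98). Among the inhibitors, Il17rd, also known as Sef, rose by 0.45. Spred2 (-0.21, adjusted p = 0.029) lost its call without day 0 replicates 1 and 2 or day 1 replicates 1, 2 and 3 (adjusted p from 0.058 to 0.11). Altogether 5 of 30 members were higher and 4 lower, 30% beside 10.9% of all genes, with a median of 0.12. The lower count was 1 without day 0 replicate 2 or day 1 replicate 1, and 2 without day 0 replicate 1 or day 1 replicates 2 and 3. Fos and Phlda1, which Erk induces, were at -0.39 and -0.32, with calls lost without day 0 replicate 2 or day 1 replicate 1 (adjusted p from 0.058 to 0.067) and without day 0 replicates 1 and 2 or day 1 replicates 1, 2 and 3 (adjusted p from 0.05 to 0.073).

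Members of the Lif and Stat3 pathway that sense the cytokine gave no call that held: Jak1, the receptor kinase, was at -0.26 and lost its call without day 0 replicate 1 or day 1 replicates 1, 2 and 3 (adjusted p from 0.057 to 0.092), while Lifr (-0.13), Il6st (-0.09) and Stat3 (0.06), chosen after their values were seen, did not pass the test. Its target genes moved in opposite directions, with Pim2 (1.48) and the feedback inhibitor Socs2 (0.34) higher and Tfcp2l1 (-1.70) and Klf4 (-0.49) lower. Another target, Socs3, was at -0.02 (adjusted p = 0.88, chosen after its value was seen). In all 2 of 20 members were higher and 3 lower, 25% beside 10.9% of all genes.

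Within Nodal signalling the secreted inhibitor Lefty1 rose and a protease fell. Pcsk6, a convertase that processes the Nodal precursor, read 9.57, 9.51 and 9.52 with Dox and 8.73, 8.67 and 8.70 without (-0.83, adjusted p = 1.8e-05). Skil, a repressor of Smad proteins, rose from 11.02, 11.04 and 10.85 to 11.63, 11.67 and 11.59 (0.66), and Smad7, an inhibitory Smad, fell by 0.53. The ligand Nodal itself (0.21, adjusted p = 0.2) and Lefty2 (-0.16, adjusted p = 0.48), chosen after their values were seen, did not pass the test. Of 22 members, 4 were higher and 2 lower, 27.3% beside 10.9% of all genes, and 3 higher and 2 lower held in each of the 6 fits.

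For Bmp, the ligand Bmp4 fell from 9.39, 9.55 and 9.33 to 8.67, 8.77 and 8.63 (-0.73, adjusted p = 9.3e-05). Id1 and Id2, inhibitors of differentiation that Bmp signals induce, rose by 0.62 and 0.50. Of 22 members 3 were higher and 1 lower, 18.2% beside 10.9% of all genes. Msx2, the other higher member (0.24), lost its call without day 0 replicates 1 and 2 or day 1 replicates 1 and 2 (adjusted p from 0.072 to 0.11). Among Tcf and Lef factors and Wnt target genes, Ccnd1, cyclin D1, rose by 0.51 and Dkk1, a secreted Wnt inhibitor, by 0.48, while Axin2, a widely used readout of the pathway chosen after its value was seen, was at -0.24 (adjusted p = 0.47) and Tcf7l1 at 0.13 (adjusted p = 0.26). There 4 of 24 members were higher and 1 lower, 20.8% beside 10.9% of all genes, and 3 of the higher held in each of the 6 fits. The lower one, Apcdd1 (-0.26), lost its call without day 1 replicate 1 (adjusted p = 0.054) and with median centring (adjusted p = 0.071).

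DNA methylation genes moved in both directions. Of 19 members 5 were higher and 5 lower, 52.6% beside 10.9% of all genes. The de novo system was higher in Dnmt3l and Dnmt3b, as given above. Tet2, which oxidises methylcytosine, fell from 9.71, 9.61 and 9.51 to 8.93, 8.996 and 8.94 (-0.66, adjusted p = 0.001), and Zfp57, which keeps imprints methylated, fell by 0.45. Mbd3, a subunit of the NuRD complex, rose by 0.34. Tet1 was at -0.34, but its call was lost without day 0 replicates 1, 2 and 3 or day 1 replicates 1, 2 and 3 (adjusted p from 0.055 to 0.15). The lower count was 2 without day 0 replicates 1 and 2 or day 1 replicates 1 and 3, and 3 without day 1 replicate 2, and 3 with median centring. Of 24 Polycomb genes, 2 were higher and 3 lower, 20.8% beside 10.9% of all genes. Phf19, which helps Polycomb repressive complex 2 to its targets, fell by 0.66, and Kdm2b, which brings complex 1 to CpG islands, rose by 0.41, whereas the enzyme Ezh2 was at 0.00 (chosen after its value was seen). The other called members did not hold: higher members numbered 1 without day 0 replicates 1 and 3 or day 1 replicates 1, 2 and 3, and lower members 1 without day 0 replicates 1 and 2 or day 1 replicates 1, 2 and 3.

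Genes of lipid synthesis rose. Of 24 genes of sterol and fatty acid synthesis, 15 were higher and 1 lower, 66.7% beside 10.9% of all genes. Their median was 0.28, and 13 to 15 were higher when 1 array was left out. Insig1, the sensor that holds back the sterol response and is also its target, read 10.72, 10.83 and 10.75 with Dox and 11.28, 11.34 and 11.37 without (0.56, standard error 0.07, adjusted p = 0.00025). Scd1, a desaturase of fatty acids, went from 9.82, 10.14 and 9.89 to 10.50, 10.56 and 10.41 (0.54), and Lss, which closes the sterol rings, rose by 0.43. Enzymes spread along the route rose by like amounts, such as Fasn, the fatty acid synthase (0.47), Sqle, which makes squalene epoxide (0.39), and Mvd of the mevalonate steps (0.49), all 3 chosen after their values were seen. Srebf1, a regulator of these genes, rose by 0.33 (likewise chosen). Elovl6, an elongase of fatty acids, was the exception, at -0.40 (adjusted p = 0.00032). Hmgcs1, which makes HMG-CoA (0.05), and Idi1, an isomerase further along the route (0.02), chosen after their values were seen, did not pass the test.

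Glycolysis and hypoxia genes gave 15 higher and 3 lower of 32, 56.2% beside 10.9% of all genes. Pgam2, the glycolytic mutase among the largest falls (-1.61), is not a member of this list, whose changes ran from -1.19 to 0.93. Their median was 0.23, and 10 to 13 were higher when 1 array was left out. Slc16a3, the lactate exporter Mct4, read 10.45, 10.43 and 10.52 with Dox and 11.14, 11.13 and 11.12 without (0.66, standard error 0.05, adjusted p = 3.4e-06). Egln3, an oxygen sensor that hypoxia induces, went from 8.40, 8.74 and 8.56 to 9.65, 9.30 and 9.55 (0.93, chosen after its value was seen). Pfkfb3, which makes an activator of glycolysis, rose by 0.64, and Slc2a1, the glucose transporter Glut1, by 0.36. The lactate dehydrogenases diverged: Ldhb fell from 10.60, 10.65 and 10.72 to 9.53, 9.35 and 9.53 (-1.19, adjusted p = 5.4e-06), whereas Ldha rose by 0.24 (chosen after its value was seen). Eno2, the neuronal enolase, fell by 0.47. Hk1 was at -0.32 (adjusted p = 0.0025), a call lost when the brightest probe set stood for the gene (adjusted p = 0.2).

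Of 34 genes of the tricarboxylic acid cycle and fatty acid oxidation, 9 were lower and 0 higher, 26.5% beside 10.9% of all genes, with a median of -0.1 and 7 to 9 lower when 1 array was left out. Acadl, a dehydrogenase of long fatty acids, read 10.25, 10.33 and 10.23 with Dox and 9.64, 9.58 and 9.62 without (-0.66, adjusted p = 9e-06). Sucla2, a subunit of succinyl-CoA ligase, went from 11.14, 11.14 and 11.15 to 10.63, 10.58 and 10.57 (-0.55, standard error 0.06). Pdk4, a kinase that shuts off pyruvate dehydrogenase, went from 7.81, 7.99 and 7.56 to 6.76, 6.81 and 6.90 (-0.96), and Cpt1a, which admits fatty acids to mitochondria, from 8.88, 9.10 and 8.83 to 8.29, 8.29 and 8.22 (-0.67). Pdk4 acts against the entry of pyruvate into the cycle, Sucla2 serves the cycle, and Acadl and Cpt1a serve the oxidation of fatty acids. Of 64 subunits of oxidative phosphorylation, 1 was higher and 0 lower, 1.56% beside 10.9% of all genes, with changes from -0.26 to 0.21. That gene, Ndufs7 (0.18), lost its call without day 0 replicates 1 and 2 or day 1 replicates 1, 2 and 3 (adjusted p from 0.054 to 0.18). Of 75 mitochondrial ribosomal proteins 9 were higher and 0 lower, 12% beside 10.9% of all genes, with a median of 0.08, but the count was 0 without day 0 replicate 1, against 2 without day 1 replicates 1, 2 and 3, and 4 without day 0 replicate 2. The coactivators Ppargc1a (0.01) and Ppargc1b (0.04), chosen after their values were seen, did not pass the test.

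Among genes of growth and division, 25% of the Myc network, 13.5% of ribosome biogenesis and 14.3% of the cell cycle and replication list were called, beside 10.9% of all genes. Mycn rose by 0.45 and Myc from 9.93, 10.002 and 9.77 to 10.35, 10.43 and 10.35 (0.48, adjusted p = 0.0088), among 4 higher and 0 lower of 16 Myc network genes, and the count was 2 without day 0 replicate 1 or day 1 replicates 2 and 3. Ribosome biogenesis gave 7 higher and 0 lower of 52, with a median of 0.07. Imp4, a nucleolar protein, was the 1 that held in each fit (0.24), and the count was 2 without day 0 replicate 1 or day 1 replicate 2, and 3 without day 1 replicates 1 and 3. Of 42 cell cycle and replication genes 4 were higher and 2 lower. Cdkn1c, the inhibitor p57, read 9.99, 9.79 and 9.82 with Dox and 10.80, 10.83 and 10.90 without (0.98, standard error 0.06, adjusted p = 1e-06), and Ccnd1 was the other that held. Counts of higher cell cycle members were 2 without day 0 replicates 2 and 3 or day 1 replicates 1, 2 and 3, and of lower members 0 without day 0 replicate 2 or day 1 replicates 1, 2 and 3, and 1 without day 0 replicate 3.

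Cell contact genes moved in both directions. Of 26 cadherins, claudins and tight junction genes, 6 were higher and 3 lower, 34.6% beside 10.9% of all genes. Ocln, occludin, read 6.83, 6.75 and 6.74 with Dox and 7.46, 7.47 and 7.27 without (0.62, adjusted p = 5.4e-05), and with Cldn6 and Cldn7 (0.54) it rose while Jam2 fell from 10.90, 10.95 and 10.86 to 9.48, 9.48 and 9.35. Cldn4 fell by 0.36. E-cadherin, Cdh1, was at 0.02 (adjusted p = 0.91) and its counterpart in mesenchyme, Cdh2, at 0.12 (adjusted p = 0.55), both chosen after their values were seen. Cdh11 (-0.45) lost its call without day 0 replicates 1, 2 and 3 or day 1 replicates 1 and 3 (adjusted p from 0.056 to 0.13), with median centring (adjusted p = 0.054) and with quantile normalization (adjusted p = 0.053).

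Lineage markers were called in 33.3% of primitive and visceral endoderm, 31.6% of trophectoderm, 14.8% of primitive streak and mesoderm and 14.3% of neuroectoderm, beside 10.9% of all genes. Primitive and visceral endoderm had 6 of 21 members higher and 1 lower, with a median of 0.18, and 4 of the higher held in each of the 6 fits. Amn, a receptor subunit of visceral endoderm, read 9.25, 9.33 and 9.50 with Dox and 9.91, 9.82 and 9.99 without (0.54, adjusted p = 0.001), Ttr, transthyretin, rose by 0.59, and Cubn, the receptor that Amn escorts, by 0.44. The defining factors Gata4 (0.11), Gata6 (-0.13) and Sox17 (-0.02), chosen after their values were seen, did not pass the test. Pdgfra, the lower member, was at -0.32, with a call lost without day 0 replicates 1, 2 and 3 or day 1 replicates 1, 2 and 3 (adjusted p from 0.076 to 0.13) and with median centring (adjusted p = 0.059). Of 27 primitive streak and mesoderm genes 1 was higher and 3 lower. Kdr, a receptor of Vegf, fell by 0.64 and Snai2, a repressor of epithelial genes, by 0.46. Without day 0 replicate 3 the higher count was 2. Foxa2 was the higher one (0.28), with a call lost without day 0 replicates 1 and 2 or day 1 replicates 2 and 3 (adjusted p from 0.055 to 0.087). Of 21 neuroectoderm genes 2 were higher and 1 lower. The lower one, Ncam1, a neural adhesion molecule, fell by 0.72 (adjusted p = 5.9e-05). The higher ones did not hold: Nes (0.60) lost its call without day 0 replicate 2 or day 1 replicates 1 and 2 (adjusted p from 0.051 to 0.068), and Msi1 (0.29) without day 0 replicates 1 and 2 or day 1 replicates 1 and 3 (adjusted p from 0.062 to 0.16). Trophectoderm had 4 of 19 higher and 2 lower, and 3 higher and 2 lower held in each of the 6 fits. Krt19 rose by 0.46 and Plac1, a placental gene, by 0.54, while Tfap2c fell by 0.35 together with Fgfr2, and Cdx2 was at 0.00 (adjusted p = 1, chosen after its value was seen). Of the 18 fibroblast markers Mmp2, a matrix protease, rose by 0.37 and Pdgfra was lower, 11.1% beside 10.9% of all genes.

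Calls covered 25% of genes of the early embryo, 15.4% of germline genes and 29.2% of interferon-stimulated genes, beside 10.9% of all genes. Of 16 genes of the 2-cell-like state and early embryo 4 were lower and 0 higher. Khdc3, a maternal factor of the egg, read 9.41, 9.77 and 9.55 with Dox and 8.18, 8.17 and 8.24 without (-1.38, standard error 0.10, adjusted p = 2.8e-06), and Pramel7 fell by 0.59. The lower count was 2 without day 1 replicate 2. Of 26 germline genes, 2 were higher and 2 lower: Tex19.1 rose by 0.51 and Mael by 0.46, both guards against transposons, while Sycp3, a protein of meiotic chromosomes, fell by 0.73 and Tfap2c, a factor of primordial germ cells, was given above. Among 24 interferon-stimulated genes 6 were higher and 1 lower, and 4 of the higher held in each of the 6 fits. Irf1 went from 7.34, 7.31 and 7.35 to 7.95, 7.87 and 7.87 (0.56, adjusted p = 5.3e-05), and Gbp3 (0.79) and Oasl2 (0.75) rose, whereas Stat2 (-0.04) and Irf9 (-0.09), which carry the signal and were chosen after their values were seen, did not pass the test. Psmb9, the lower one, was at -0.40 and lost its call without day 0 replicates 1 and 3 or day 1 replicates 2 and 3 (adjusted p from 0.056 to 0.095).

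The letters that Esrrb is known to bind were looked for near gene starts. TCAAGGTCA was searched on both strands in windows from 250 bases before to 50 after the annotated starts (RefSeq, GRCm38.p6), which exist for 15614 of the 19938 genes. At least 1 window held it for 54 genes (0.35%), for 2 of 683 lower genes (0.29%) and for 2 of 1024 higher genes (0.20%), and for 0 of the 29 genes with a window among the 40 that fell by more than 2-fold. With any base at the second position (TNAAGGTCA, which includes the first motif) the shares were 1.17% of all, 1.02% of lower and 0.59% of higher genes. The lower genes with the full motif are shown with the motif in capitals and 10 bases on each side. Bhmt, a methyltransferase of homocysteine, was at -0.50 (adjusted p = 0.0097), its call being lost without day 1 replicate 3 (adjusted p = 0.05), and Sgms1, a sphingomyelin synthase, at -0.27 (adjusted p = 0.024), its call being lost without day 0 replicates 1 and 2 or day 1 replicates 2 and 3 (adjusted p from 0.052 to 0.096). These windows cover no distant enhancer.
Bhmt, chr13:93637815-93637843, minus strand: tgaccccagaTCAAGGTCAgaggcctgct
Sgms1, chr19:32349339-32349367, minus strand: ccttcctggaTCAAGGTCAtacatgatta

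Days 3 and 5 of the same line can be set beside these values. They share the day 0 arrays with the comparison above, and the 30 genes were chosen for their day 1 change, so their later values are given as a description. All 15 largest falls were still below each day 0 array at day 3 and at day 5. Of the 15 largest rises, 14 were above each day 0 array at day 3 and 10 at day 5. The share of all genes clear of the day 0 arrays was not counted for these 2 days, so these counts have no background beside them. Mir363 read 7.68, 7.81 and 7.71 at day 3 and 6.80, 6.59 and 6.82 at day 5, so it stayed high. Pim2 read 11.58, 11.64 and 11.55 and 11.12, 10.91 and 11.08, above its day 1 arrays at both times. By contrast Lgals2 read 8.86, 9.30 and 9.04 at day 3 and 6.54, 6.79 and 6.48 at day 5, below where it started, as did Fgf15 (8.04, 8.02 and 8.28 at day 5), Olfr307 (5.15, 5.59 and 5.02) and Slc23a1 (7.23, 7.22 and 7.15). Bcl11a was back among its day 0 values at day 5 (7.05, 7.15 and 7.28). Nanog, lowest at day 1, read 11.44, 11.40 and 11.40 at day 3 and 11.83, 11.77 and 11.75 at day 5, and Esrrb read 8.20, 8.07 and 8.34 and 8.15, 8.28 and 8.13.

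**Figure D4:**
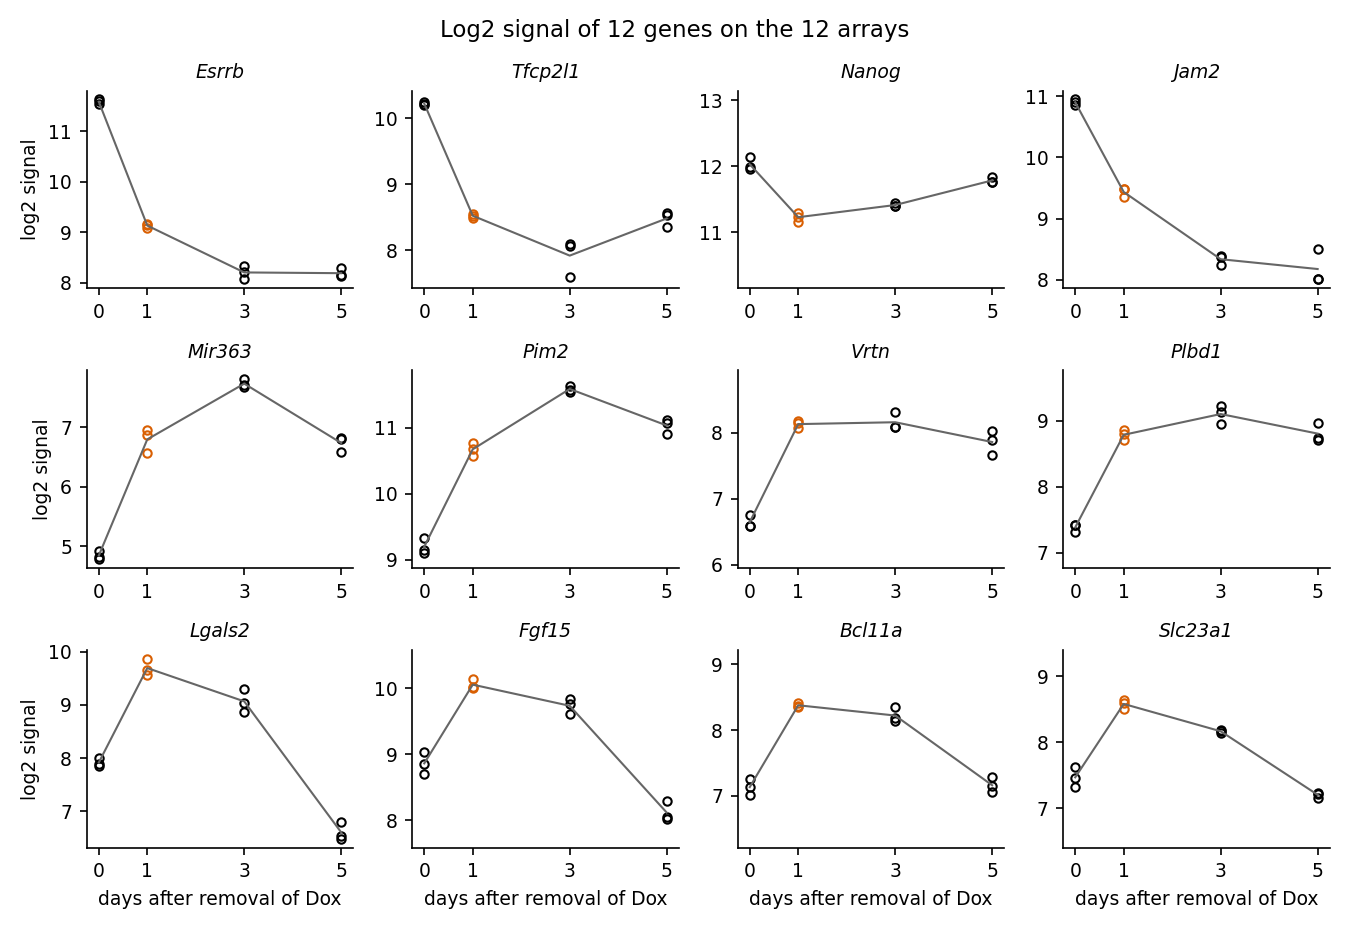
Log2 signal (vertical axes, each spanning 3 units or more) of 12 genes on the 3 arrays of days 0, 1, 3 and 5 after removal of Dox (horizontal axes), with day 1 in orange and a line through the day means. Falls such as Esrrb and Jam2 go on after day 1, Mir363, Pim2, Vrtn and Plbd1 stay above day 0, and Lgals2, Fgf15, Bcl11a and Slc23a1 come back to or below it by day 5.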

How the data were processed

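RNA of 12 cultures of the line Esrrb_R was measured on 1 Affymetrix Mouse Gene 1.0 ST array each. Signals were summarised by the authors in Expression Console (version not given in the sources used here) by the Robust Multichip Average, and the deposited values are log2 signals per probe set. The annotation of the platform gave the gene symbols. There were 35557 probe sets, of which 21789 had 1 symbol and were averaged per gene, 1621 had several and 12147 had none. Identifiers of 21698 were found in RefSeq (GRCm38.p6), and 0 symbols had to be updated.

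The lmFit and eBayes functions of limma 3.58.1 (R 4.3.3) were applied in 1 model of all 12 arrays with a mean per day, 8 residual and 4.63 prior degrees of freedom, and p-values adjusted by Benjamini and Hochberg over 19938 genes, with a threshold of 0.05. The test was also run on simulated data. With 3 arrays a day, a two-sided exact permutation test of a single gene cannot give a p under 0.1. The number of arrays limits the precision, as there are no reads to count.

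The comparison, the 41 gene lists and the genes named were chosen with earlier results of these data known. Named genes are the called genes with the 15 largest rises and the 15 largest falls whose arrays of both days do not overlap (without clone and model symbols), from each list up to 4 called members of lowest adjusted p and up to 3 of the opposite direction, and genes that the paper names. Others are marked as chosen after their values were seen, except Nr6a1, Otx2, Tet1 and Jak1, which also lie outside this rule. Zfp42, Utf1, Dppa5a and Tdgf1 came with the stem cell markers, and further microRNA and motif genes with their own searches. The alternatives were the 6 arrays alone, the replicate number as a block, a trended robust variance, quantile normalization, median centring, no dim genes (the lowest 30%), the brightest probe set per gene, every probe set, array weights, the methods' test and each of the 6 arrays left out. Plots used matplotlib 3.10.9, and tables used pandas 2.3.3 and numpy 2.4.6 under Python 3.11.15.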

Additional observations from a re-analysis of the deposited data

How the results depend on the processing

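The fall of Esrrb kept its direction and its call under each alternative that gives a value per gene, between -2.42 and -2.48. The main counts were 1286 higher and 894 lower. Leaving out 1 of the 6 arrays gave 734 to 1195 higher and 502 to 911 lower genes. Median centring gave 1301 higher and 567 lower. The methods' test, an equal variance two-sample test on the 6 arrays that the study used for the first day against day 0, called 619 higher and 401 lower after a Benjamini-Hochberg adjustment added here and 2677 and 1769 at an unadjusted p under 0.05. The study used it to find quick targets for its network. For significant genes of each whole time series it states an analysis of variance with Bonferroni correction and a fold change limit, which was not run here. Counts under the 6 arrays alone (1062 and 734), a trended robust variance (1746 and 1194), quantile normalization (1330 and 932), no dim genes (1687 and 1095), the brightest probe set (1294 and 909), every probe set (1091 and 849 probe sets) and array weights (1787 and 1234) stayed within 1.5 times the main counts. Same-numbered replicates of day 0 and day 1 did not deviate together over all genes (correlations of 0.01, -0.04 and 0.03). Whether same-numbered cultures were handled together was not tested, and the replicate block gave 1069 higher and 773 lower. Named genes that lost their call numbered 10 with the replicate block, 17 with the 6 arrays alone, 18 with median centring, 73 with the methods' test after Benjamini-Hochberg, 17 to 41 without 1 array and 0 to 3 with the others. Of the list counts, 50 moved by over 1.5 times with the methods' test after Benjamini-Hochberg and 32 did not, and between 13 and 28 moved without 1 array. Of the named genes, the sign turned for Pou5f1 with quantile normalization (-0.006), without day 0 replicate 1 (-0.036) and without day 1 replicate 3 (-0.030), for Trim25 without day 0 replicate 3 (-0.001), for Dppa2 without day 0 replicate 2 (0.036), and for Mllt6 with median centring (0.013) and without day 0 replicate 1 (0.013), none of them called. Over the 6 fits without 1 array these genes ranged from -0.036 to 0.032 (Pou5f1), -0.001 to 0.056 (Trim25), -0.163 to 0.036 (Dppa2), -0.056 to 0.013 (Mllt6). The causes were not tested. The 3 arrays a day limit what can be called, and the median standard error of a change was 0.08.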

Other observations

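Calls covered 20% of the clock genes, 14.3% of the prostaglandin genes and 18.2% of the matrix and integrin genes. They covered 20.6% of the amino acid stress response and 5.26% of tRNA synthetases, beside 10.9% of all genes. Among the clock genes, 2 of 20 were higher and 2 lower. Csnk1e, a kinase that marks Per proteins for decay, fell by 0.66 (adjusted p = 2.1e-05 from limma) and Arntl, the activator Bmal1, by 0.37, while Bhlhe40, a repressor of it, rose by 0.50. Bhlhe41 was at 0.54, with a call lost without day 0 replicates 1 and 3 or day 1 replicates 1 and 2 (adjusted p from 0.084 to 0.15). Of 21 genes of prostaglandin synthesis and signalling, 2 were higher and 1 lower. Ptgfr, the receptor of prostaglandin F, fell by 0.91 (adjusted p = 0.00028), and Slco2a1, a prostaglandin transporter, rose by 0.60, as did Pla2g1b, a secreted phospholipase, by 0.42. Of 33 matrix and integrin genes, 4 were higher and 2 lower. Agrn, agrin of basement membranes, rose by 0.51 and Col18a1 by 0.41, while Itga6, a laminin receptor subunit, fell by 0.37. The higher count there was 2 without day 0 replicate 1 or day 1 replicates 1 and 2, and the lower count 1 without day 0 replicate 1 or day 1 replicates 1 and 3. Of 34 genes of the amino acid stress response, 5 were higher and 2 lower: Stc2, a secreted glycoprotein, rose by 0.58 and Slc38a2, a glutamine transporter, by 0.37, while Gpt2, a transaminase, fell by 0.50 and Asns, asparagine synthetase, by 0.36. The higher count was 3 without day 1 replicates 1 and 3, and the lower count 4 without day 0 replicate 1. Of 19 tRNA synthetases, Farsa alone was higher (0.31, adjusted p = 0.0022).

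The share called was 12% for p53 targets and the Bcl2 family, beside 10.9% of all genes. It was 14.3% for immediate early genes, 14.3% for actin genes and 17.6% for keratins and desmosomes. For histones it was 20%, for blood and endothelial markers 44.4% and for housekeeping genes 25%. Of 25 p53 target and Bcl2 family genes, 1 was higher and 2 lower, and Bmf, an inducer of cell death, fell by 0.36. The higher one, Plk3 (0.23), lost its call without day 0 replicates 1, 2 and 3 or day 1 replicates 1, 2 and 3 (adjusted p from 0.063 to 0.18), and Bid (-0.25) without day 1 replicate 3 (adjusted p = 0.07). Of 21 immediate early genes 2 were higher and 1 lower. Ier3 rose by 0.51, and Ier5 (0.43) lost its call without day 0 replicates 1 and 2 or day 1 replicate 3 (adjusted p from 0.059 to 0.071). Of 28 actin genes 2 were higher and 2 lower, of which 0 held in each fit: the higher count was 0 without day 0 replicates 1 and 3 or day 1 replicates 1 and 3, and 1 without day 1 replicate 2, and the lower count 0 without day 0 replicate 1 or day 1 replicates 1 and 3, and 1 without day 0 replicates 2 and 3 or day 1 replicate 2. Of 17 keratins and desmosome genes, Krt19 was higher and 2 were lower, Dsc2 (-0.36), whose call was lost without day 0 replicate 1 or day 1 replicate 2 (adjusted p 0.063 in each), and Pkp4 (-0.28), whose call was lost without day 0 replicates 1 and 2 or day 1 replicates 1 and 3 (adjusted p from 0.055 to 0.069). Of 20 replication-dependent histone genes, whose near-identical copies share probes, 3 were higher and 1 lower, and H3c15 (0.72) held in each fit. Higher histone counts were 1 without day 0 replicate 1 or day 1 replicates 1 and 3, and lower counts 0 without day 0 replicate 2 or day 1 replicates 2 and 3. Of 9 blood and endothelial markers 2 were higher and 2 lower: Kdr and Vwf (-0.42) held, Cd68 (0.37) lost its call without day 0 replicates 1, 2 and 3 or day 1 replicates 1, 2 and 3 (adjusted p from 0.06 to 0.12), and Cd34 (0.25) without day 0 replicates 1, 2 and 3 or day 1 replicates 1, 2 and 3 (adjusted p from 0.051 to 0.15). Of 12 housekeeping genes 2 were higher and 1 lower. Hprt, an enzyme of purine salvage, fell by 0.29, Gusb (0.32) lost its call without day 0 replicate 1 (adjusted p = 0.051), and Polr2a (0.21) without day 0 replicates 1 and 2 or day 1 replicates 1 and 3 (adjusted p from 0.055 to 0.094).

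Of the genes named in the paper and not yet given, Gli2, a factor of Hedgehog signalling, read 8.09, 7.97 and 8.04 with Dox and 7.71, 7.76 and 7.74 without (-0.30, adjusted p = 0.013), and this call was lost without day 0 replicate 1 or day 1 replicate 1 (adjusted p from 0.052 to 0.055). Trim25 (0.03), Sumo3 (0.05), Mov10 (0.17), Creb1 (0.02), Mllt6 (-0.02) and Nefl (-0.06) did not pass the test at day 1.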
